A study of Drosophila melanogaster with 6 samples.

Results

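The 9 genes described here form the core of the Drosophila circadian clock. They were measured by array in heads of males lacking Sex-lethal (Sxl), the switch gene of female development, and in heads of their wild-type brothers. The genes are Clock (Clk), cycle (cyc), period (per), timeless (tim), vrille (vri), Pdp1, cryptochrome (cry), clockwork orange (cwo) and discs overgrown (dco, also called doubletime). They were chosen by name, and every probe set that the array annotation gives to one of them, by its current symbol or a synonym, was taken. This gave 11 probe sets, 2 each for tim and cwo and 1 each for the others, out of 18769 probe sets that are not controls. All 11 were among the 11261 bright enough to be tested. In all, 8670 genes had a tested probe set of their own.

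The deletion males carried Sxlfp7BO, which removes the whole Sxl gene, flanked by the visible markers cm and ct, after repeated backcrosses to Oregon-R. The wild-type males, labelled Oregon-R, were brothers from the same kind of cross, so the genotypes also differ at cm and ct, and an effect of Sxl cannot be told apart from one of the linked X chromosome. Flies were kept at 25 °C and the males were aged 2 to 5 days, and each genotype was measured on 3 arrays that the labels call biological replicates. The time of day and the light schedule at which heads were taken are not given in the sources used here.

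In the fly clock, CLK and CYC form a heterodimer that activates per and tim, whose proteins return to the nucleus and block it. CLK and CYC also activate vri and Pdp1, and VRI represses Clk while PDP1 activates it. The transcripts of per, tim, vri, Pdp1 and cwo peak around dusk or early night in fly heads, and those of Clk and cry around dawn, while cyc and dco cycle little or not at all. Because of this opposition, a shift of the clock's phase usually moves the dusk and dawn transcripts in opposite directions. Much of the clock transcript of a whole head comes from the photoreceptors of the eye.

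The arrays matched their labels. The 3 Sxl probe sets averaged 4.65 to 6.19 in deletion males and 97.8 to 190 in wild type (mean intensities, n = 3 each). Transcripts of photoreceptors, neurons, glia, fat body and muscle were detected in both genotypes, as heads should hold them. Of all tested probe sets, 293 (2.6%) passed the threshold, an adjusted p under 0.05 in a limma fit with genotype as its only term. Fold changes below are differences of log2(intensity + 1), deletion minus wild type, which understate the change of dim probe sets.

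Of the 9 clock genes, Clk was called higher in deletion males and the other 8 were not called. Of the 11 probe sets, 8 had a positive and 3 a negative log2 fold change, with a median of 0.03 against 0.0044 over all tested probe sets. One of the 11 passed the threshold, to be read against the 2.6% called over all probe sets (1.23% called higher), and the same one was the only probe set with an unadjusted limma p under 0.05. It was also the only one of the 11 without overlap between the genotypes, a state met by 24% of all tested probe sets. With the replicate number as a block (each deletion array matched to the wild-type array of its number) again Clk alone was called, and 4 probe sets of 3 genes (Clk, per and both of cwo) had an unadjusted limma p under 0.05, all of them higher in deletion males. The block called 7.4% of all tested probe sets, 3.42% higher and 3.98% lower. Without the block 1.38% of all were called lower and no clock probe set was. Counted by pairs of equal number, 5 of the 11 were higher in the deletion array in all 3 pairs and 0 were lower in all 3. Of all tested probe sets, 22.7% were higher in all 3 pairs and 22% lower. The 5 were those of Clk and per, the dimmer one of tim and both of cwo, so cwo counts more than once. The brighter tim probe set was higher in 2 pairs.

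**Figure D1:**
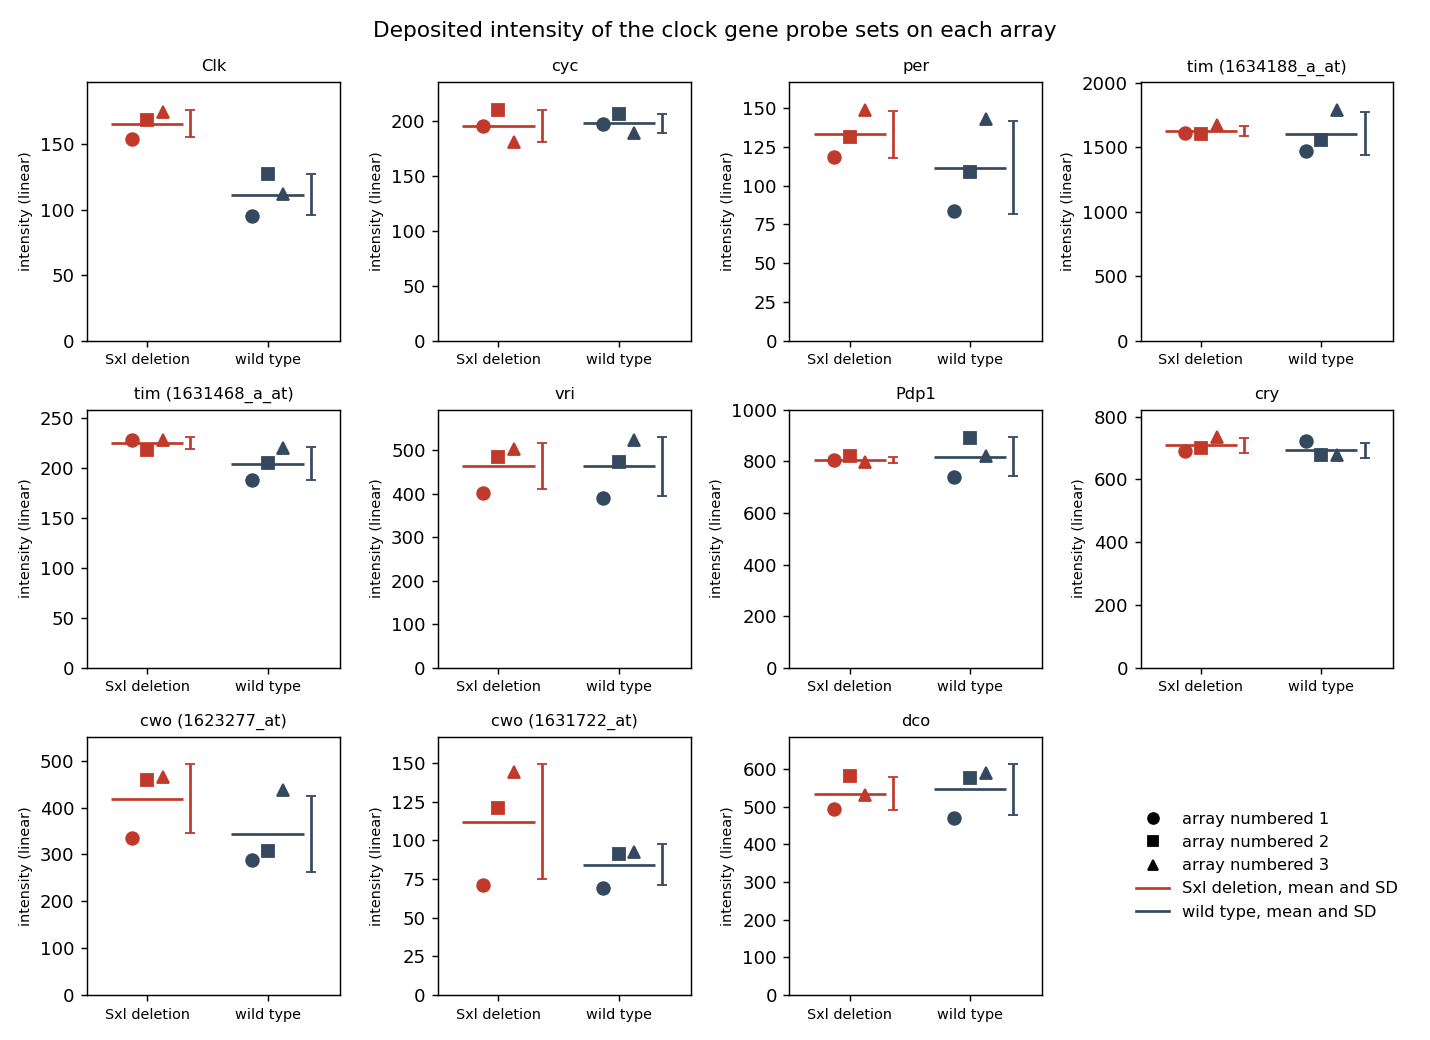
Deposited linear intensity (vertical axes, from 0) of the 11 clock gene probe sets on each of the 6 arrays, with deletion males left and wild type right in each panel. Marker shapes give the replicate number, lines the means and bars the SD (n = 3). Only in the Clk panel do the genotypes not overlap, at 154 or more in deletion males and 127 or less in wild type.

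Among the activators, Clk encodes the bHLH-PAS protein that pairs with CYC. Its probe set read 154, 168 and 174 in deletion males 1, 2 and 3, against 95.2, 127 and 112 in wild type 1, 2 and 3. Every deletion array was above every wild-type array. The means were 166 ± 10.5 in deletion males and 112 ± 16.01 in wild type (SD, n = 3), a log2 fold change of 0.57 ± 0.11 (SE) or 1.49-fold with a 95% interval from 1.25 to 1.77 (limma adjusted p = 0.0383). With the replicate number as a block the adjusted p was 0.00716. Without the intensity trend in limma's variance model Clk was not called (adjusted p = 0.0676). Nor was it called when deletion array 1, 2 or 3 or wild-type array 3 was left out (adjusted p = 0.0843, 0.149, 0.152 and 0.0923), although the log2 fold change stayed between 0.47 and 0.67 in every such omission. Clk lies on chromosome arm 3L and not on the X, which carries the deletion. Pdp1 lies near it with 2 protein-coding genes between, and had no call.

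The partner of CLK, cyc, read 195, 209 and 180 in deletion males and 197, 206 and 189 in wild type. The groups overlapped fully, with a log2 fold change of -0.02 and a 95% interval from -0.18 to 0.14.

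The repressors per and tim were not called. The per probe set read 119, 132 and 149 in deletion males 1, 2 and 3, against 83.5, 109 and 143 in wild type 1, 2 and 3. The groups overlapped, but the deletion array was the higher one in all 3 pairs of equal number. The log2 fold change was 0.28 ± 0.18 (SE), with an interval from -0.14 to 0.70 (adjusted p = 0.49). With the replicate block the standard error was 0.09, the interval ran from 0.07 to 0.49 and the adjusted p was 0.114 (0.0154 before adjustment). The gene is X-linked and 387 protein-coding genes lie between it and Sxl, with the cm marker on that side of Sxl too.

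TIM binds PER and is destroyed in light. The brighter tim probe set read 1609, 1599 and 1674 in deletion males and 1469, 1557 and 1789 in wild type. Wild type held both the lowest and the highest value, and the log2 fold change was 0.02 with an interval from -0.14 to 0.19. The other tim probe set read 228, 218 and 229 in deletion males and 188, 205 and 220 in wild type, a log2 fold change of 0.14 with an interval from -0.02 to 0.30 (adjusted p = 0.344). Neither interval reached below a log2 fold change of -0.14.

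In the second loop, vri encodes a bZIP repressor of Clk. It read 402, 484 and 502 in deletion males and 391, 473 and 524 in wild type. The arrays of equal number lay close together across the genotypes, and the log2 fold change was 0.01 with an interval from -0.27 to 0.29. Pdp1, whose epsilon isoform activates Clk, read 804, 820 and 797 in deletion males and 740, 892 and 823 in wild type, a log2 fold change of -0.02 with an interval from -0.17 to 0.14. A single Pdp1 probe set was available, and which isoforms it measures was not tested.

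CWO is a repressor that competes with CLK and CYC at their binding sites. The brighter cwo probe set read 335, 458 and 465 in deletion males 1, 2 and 3, against 287, 308 and 437 in wild type 1, 2 and 3. The deletion array was higher in all 3 pairs, though the groups overlapped, with a log2 fold change of 0.29 ± 0.18 (SE; interval from -0.12 to 0.71, adjusted p = 0.46). With the block its interval ran from 0.09 to 0.50 (adjusted p = 0.0989). The dimmer one read 71.1, 121 and 144 in deletion males and 68.8, 91.2 and 92.4 in wild type, with a log2 fold change of 0.36 ± 0.24 (SE; adjusted p = 0.511, 0.102 with the block). Without both arrays numbered 1 this dimmer probe set was called (log2 fold change 0.52, adjusted p = 0.027), and the brighter one was not.

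The blue-light receptor gene cry read 690, 700 and 734 in deletion males and 721, 677 and 678 in wild type. It had the smallest spread of the 11 probe sets and a log2 fold change of 0.03 with an interval from -0.08 to 0.14 (adjusted p = 0.795). The kinase gene dco, whose product phosphorylates PER, read 492, 581 and 531 in deletion males and 469, 577 and 590 in wild type, a log2 fold change of -0.02 with an interval from -0.25 to 0.21.

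**Figure D2:**
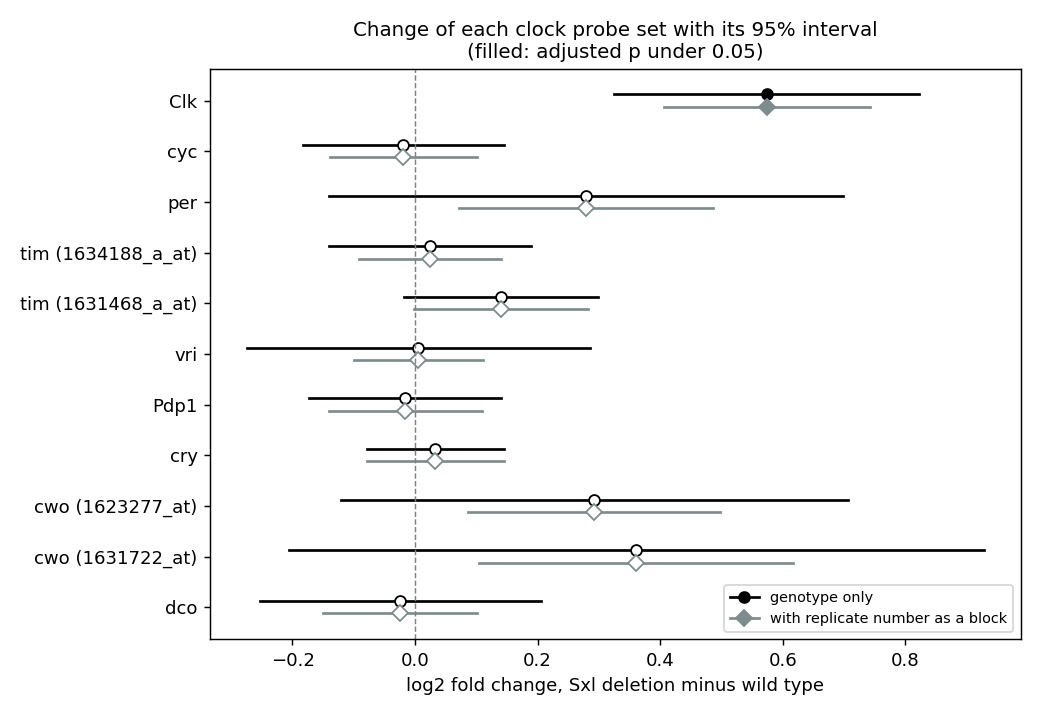
Log2 fold change of each clock probe set, deletion minus wild type (horizontal axis), with 95% intervals from limma for the fit with genotype only (circles) and with the replicate number as a block (diamonds). Filled symbols have an adjusted p under 0.05; only Clk is filled, at 0.57 in both fits, and the intervals of per, vri and cwo narrow with the block.

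The genotypes were then compared for a shift of clock phase, within arrays of equal replicate number and with the brightest probe set of each gene. The dusk group of per, tim, vri, Pdp1 and cwo was, on average, 0.20, 0.16 and -0.01 higher on the log2 scale in the deletion array of pairs 1, 2 and 3. The dawn group of Clk and cry was 0.31, 0.23 and 0.37 higher. The group means therefore moved to the same side in pairs 1 and 2. In pair 3 they moved to opposite sides, and the dusk mean was close to 0. The dusk genes differed among themselves, from 0.04 (vri) to 0.50 (per) in pair 1. In pair 2 they ran from -0.12 (Pdp1) to 0.57 (cwo), with tim and vri at 0.04. None of the 5 dusk genes was called in either direction by limma, with or without the block. Their 95% intervals, which are not adjusted for the number of probe sets, all held 0 without the block. With the block those of per and cwo lay above 0, the others held it. A coordinated fall of the dusk transcripts beside the higher Clk was not seen in these values.

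The values of the 2 dawn genes differed. Clk was higher by 0.69, 0.40 and 0.63 in pairs 1, 2 and 3, while cry differed by -0.06, 0.05 and 0.11. The difference between Clk and cry was larger in the deletion array by 0.75, 0.35 and 0.52, or 0.54 on average. This is a description without a test, since Clk was singled out after its values were seen. The higher mean of the dawn group came mostly from Clk.

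As a single description of phase, the dusk mean minus the dawn mean, each gene centred on its mean over the 6 arrays, was -0.16, -0.06 and -0.06 in deletion males 1, 2 and 3, against -0.05, 0.01 and 0.32 in wild type 1, 2 and 3. The deletion mean lay below the wild-type mean by 0.19, with a pooled SD within genotype of 0.15. The deletion array was the lower one in all 3 pairs, by 0.11, 0.07 and 0.38. That sign rests on Clk: with cry alone as the dawn group, a choice made after the values were seen, the differences in pairs 1, 2 and 3 were 0.27, 0.11 and -0.13, or 0.08 on average. One array weighed on it as well, since without wild-type array 3 the difference in means was -0.07.

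**Figure D3:**
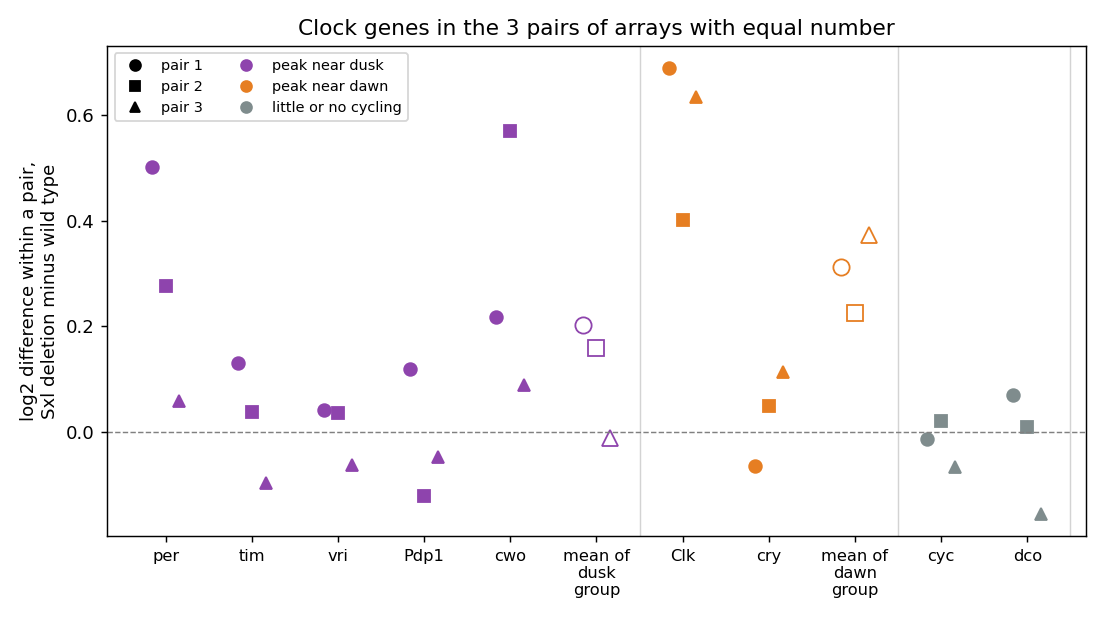
Log2 difference of the deletion array from the wild-type array of equal number (vertical axis) for each clock gene, with marker shapes for pairs 1, 2 and 3, colours for the time of day at which the transcript is known to peak, and open symbols for group means. Clk stands at 0.40 to 0.69 in all pairs, cry lies around 0, and the dusk genes lie above 0 more often than below it.

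Several clock genes varied more between the arrays of a genotype than most probe sets did. The spread of log2 values within a genotype (pooled SD) was 0.30 for per, 0.30 and 0.41 for the brighter and dimmer cwo probe set and 0.19 for vri, against a median of 0.10 over all tested probe sets. For per and cwo this spread was at the 97.5th to 98.8th percentile of tested probe sets. It was 0.05 for cry and 0.09 for cyc, below the median.

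Part of these deviations was shared by arrays of the same number. For vri the arrays numbered 1 lay 0.20 below the genotype mean in deletion males and 0.23 below it in wild type (deviations of -0.20 and -0.23). For per the deviations of array 1 were -0.16 in deletion males and -0.38 in wild type, and those of array 3 were 0.17 and 0.39. For the brighter cwo probe set the deviations of array 1 were -0.31 in deletion males and -0.23 in wild type, and those of array 3 were 0.16 and 0.37, whereas array 2 deviated to opposite sides, by 0.14 in deletion males and -0.13 in wild type. In 6 of the 11 probe sets (Clk, per, vri, both of cwo, and dco) the array numbered 1 was the lowest in both genotypes, as it was for 22.8% of all tested probe sets, a count made after the values were seen.

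Taking the number as a block reduced the standard error accordingly. The ratio of the standard error with the block to that without it was 0.37 for vri, 0.49 for per, 0.49 and 0.44 for the cwo probe sets and 0.54 for dco, against a median of 0.91 over all tested probe sets and 0.98 for cry. For the dawn genes the deviations of arrays 1, 2 and 3 were -0.10, 0.03 and 0.08 in deletion males and -0.22, 0.20 and 0.02 in wild type for Clk. For cry they were -0.04, -0.02 and 0.05 in deletion males and 0.06, -0.03 and -0.03 in wild type, so that cry went to opposite sides in the genotypes on arrays 1 and 3. The labels do not say what a replicate number stands for, and whether time of day differed between numbers was not tested.

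**Figure D4:**
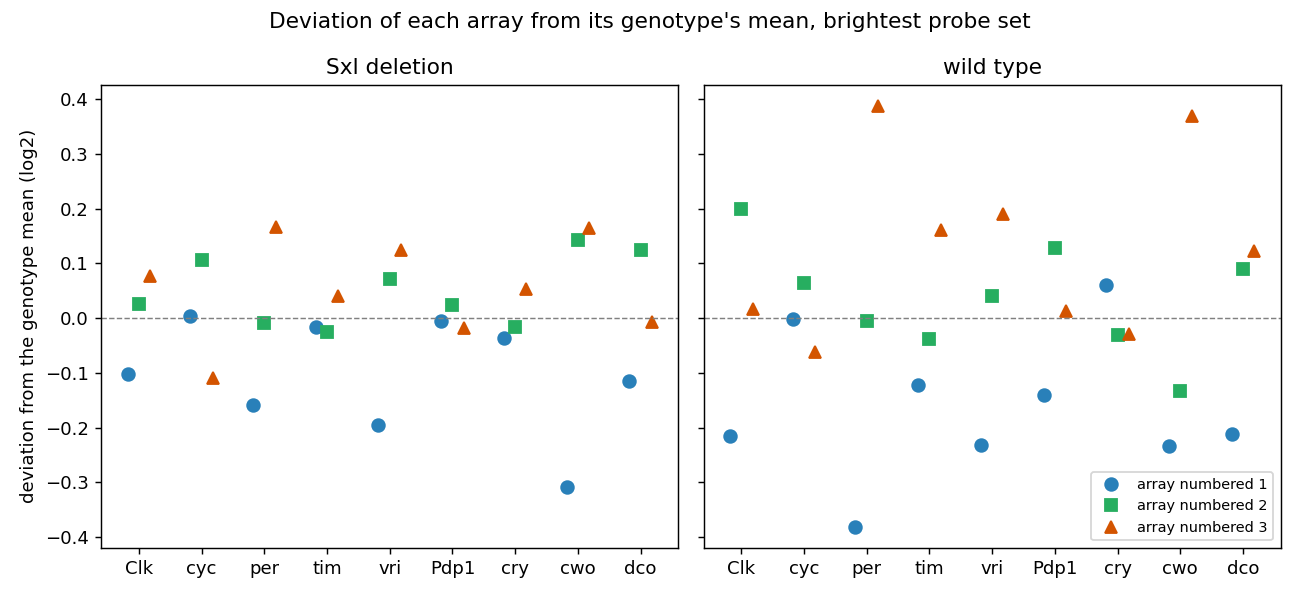
Deviation of each array from the mean of its genotype (vertical axis, log2) for the brightest probe set of the 9 clock genes, deletion males left and wild type right, with colours and shapes for the replicate number. In both panels the array numbered 1 is low for Clk, per, vri, cwo and dco, and the array numbered 3 is high for per, vri and cwo.

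The genes whose pattern over the 6 arrays was most like that of Clk were dpr8, rdgA, CG13670, LysRS and dlg1, out of 8669 other genes. Likeness was the root mean square difference of centred log2 values, which was 0.06 to 0.09 for these 5 and 0.33 for the median gene. The set includes rdgA, a diacylglycerol kinase of photoreceptors, which averaged 743 in deletion males and 500 in wild type. As rdgA was picked for its likeness to Clk, a similar log2 fold change (0.57, limma adjusted p = 0.0334) was built into the choice. It is also among the 10 tested photoreceptor markers below. Of the 5, dpr8, rdgA, LysRS and dlg1 are X-linked and CG13670 lies on 3L with Clk. The share of X-linked genes among the 8669 was not set beside this, and a link of the pattern to the X was not tested.

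Photoreceptor markers moved with Clk. All 10 tested markers of a list of 12 had a positive log2 fold change, with a median of 0.42, and 4 were called higher (7 with the block). Over all tested probe sets 51.3% were positive and 1.23% were called higher (3.42% with the block). Their summed intensity was 36847 to 37696 on the deletion arrays and 27434 to 32716 on the wild-type arrays, and none of the 10 was near the lowest intensities. The log2 fold changes of the 10 ran from 0.12 (Arr2) to 0.62 (prom), and that of Clk, 0.57, lay inside this range. The mean of the 10 was higher in the deletion array by 0.58, 0.29 and 0.32 in pairs 1, 2 and 3. Clk exceeded that shift by 0.10, 0.11 and 0.32. The value of per fell short of it by 0.08, 0.02 and 0.26 (differences of -0.08, -0.02 and -0.26). Averaged over the pairs, the marker mean was higher by 0.40, Clk by 0.57, the dusk group by 0.12 and cry by 0.03. The log2 fold changes of cyc and dco were -0.02 each. The part of the photoreceptor transcripts in the change of Clk was not tested, and in whole heads a change in cell number and one in RNA per cell cannot be told apart.

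Markers of other cell types were read in the same way. Of 6 tested fat body markers 5 were negative, and fit was called lower (4 lower with the block), with sums of 17898 to 19311 in deletion males and 22242 to 23197 in wild type. Of 6 glial markers 1 was positive (median log2 fold change -0.20) and none was called (2 lower with the block). Of 4 neuronal markers 3 were positive (median 0.08) and none was called (1 higher with the block). Of 3 muscle markers 1 was positive (median -0.03) and none was called. Over all tested probe sets 1.38% were called lower and 1.23% higher (3.98% and 3.42% with the block). The ratio of 3' to 5' signal of the eIF-4a control, a sign of RNA integrity, was 3.40 ± 0.09 in deletion males and 3.79 ± 0.27 in wild type (SD, n = 3). The ratio for ACTIN was 3.11 ± 0.29 in deletion males and 3.38 ± 0.34 in wild type. The ratio for GAPDH was 3.81 ± 0.11 in deletion males and 3.67 ± 0.11 in wild type. The part of these shifts in the clock values was not tested.

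Beyond the core, transcripts of 2 neuropeptide genes from a list of clock neuron signals were lower in whole heads of deletion males. Which cells these lower values came from was not tested. Of 9 tested genes for peptides and a receptor of clock neurons 2 fell and 8 had a negative log2 fold change (median -0.06). Over all tested probe sets 1.38% were called lower and 51.3% had a positive log2 fold change. The gene Pdf, whose peptide synchronises the clock neurons, read 293, 310 and 312 in deletion males, against 489, 455 and 419 in wild type. The groups lay far apart relative to their spread, with a log2 fold change of -0.57 ± 0.07 (SE, adjusted p = 0.00661), and Pdf kept its call in all 17 alternative settings. The short neuropeptide F gene sNPF read 259, 244 and 240 in deletion males and 342, 331 and 290 in wild type, a log2 fold change of -0.37 (adjusted p = 0.0448), but lost its call in 7 of the 17 settings. These were quantile normalization, the fit without the trend, and the omission of any single array other than wild-type array 3, with adjusted p up to 0.169. The receptor gene Pdfr (0.10) and the other peptide genes, ITP (-0.03), NPF (-0.03), Dh31 (-0.03), Nplp1 (-0.07), CCHa1 (-0.06) and CNMa (-0.28), were not called.

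Among 7 tested cofactors of clock transcription or translation 1 rose and 6 were not called (median -0.03), where 1.23% of all tested probe sets were called higher. The gene that rose was nej, an X-linked histone acetyltransferase gene whose product binds CLK, with 255 protein-coding genes between it and Sxl. Its brighter probe set read 83.9, 93.2 and 107 in deletion males and 46.7, 57.0 and 55.7 in wild type, a log2 fold change of 0.82 (adjusted p = 0.0137). Its dimmer probe set did not share the change, with -0.06 and an interval from -0.47 to 0.36. Without deletion array 2 or 3 nej was not called (adjusted p = 0.0744 and 0.0633).

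The remaining lists had no call in the fit with genotype only, and 1 each with the block, which called 3.42% of all tested probe sets higher. Of 7 tested phosphatase and ubiquitin pathway genes, wdb, a phosphatase subunit, was called with the block. Its brighter probe set had a log2 fold change of 0.29 (limma adjusted p = 0.386, 0.0413 with the block). Its dimmer probe set was not called in either fit (0.13, limma adjusted p = 0.536, 0.478 with the block). The kinases of that list (sgg, CkIIalpha, CkIIbeta and nmo) had no named probe set and were not analysed. Of 4 tested genes of light and temperature input, Hdc, which makes the photoreceptor transmitter histamine, averaged 685 ± 28.3 in deletion males and 459 ± 97.3 in wild type (SD, n = 3; log2 fold change 0.60, adjusted p = 0.0719, 0.0331 with the block). Of 8 tested output and excitability genes, Slob, which binds a potassium channel and is known to cycle, was called with the block. Its brighter probe set averaged 806 ± 25.0 in deletion males and 609 ± 83.3 in wild type (SD, n = 3). The log2 fold change was 0.41 (limma adjusted p = 0.0648, 0.0245 with the block). The dimmer Slob probe set had a log2 fold change of 0.27 and was not called in either fit (limma adjusted p = 0.0863, 0.0624 with the block). For Hdc and Slob no value of one genotype overlapped with the other, a state met by 24% of all tested probe sets.

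**Figure D5:**
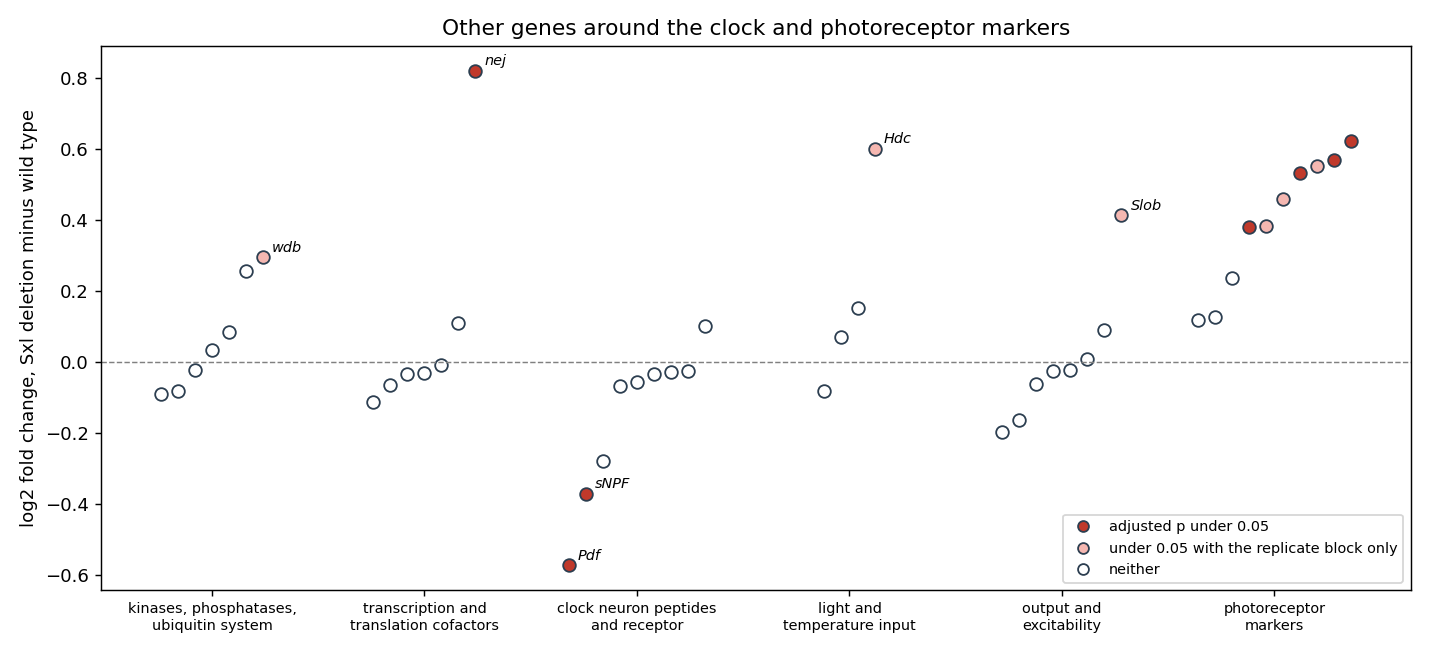
Log2 fold change, deletion minus wild type (vertical axis), of the tested genes in 5 lists around the clock and of 10 photoreceptor markers, 1 point a gene by its brightest probe set. Dark points have an adjusted p under 0.05 and pale points only with the replicate block; Pdf and sNPF lie lowest, nej highest, and all photoreceptor markers lie above 0.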

How the data were processed

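RNA of male heads was measured on 6 Affymetrix arrays, 3 a genotype, with biotin-labelled cRNA per the labels' protocols. The authors deposited 1 linear intensity per probe set and array, and the sources used here do not give how these were summarised, background-corrected or normalized. Array medians ran from 14.3 to 14.8, a difference of 0.05 on the log2 scale and under the limit of 0.2 set for renormalizing, so the intensities were used as deposited. Arrays have no read depth, and their number limits the precision.

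Values were analysed as log2(intensity + 1) with limma 3.58.1 in R 4.3.3 (lmFit, eBayes with an intensity trend, two-sided, Benjamini-Hochberg over 11261 probe sets, threshold 0.05). Left out were 183 controls and probe sets with a mean log2 value under the 40th percentile (intensity 8.35). A gene's brightest probe set stands for it in lists. Names came from the platform annotation, updated through a RefSeq gene table (Release 6 plus ISO1 MT), and gave a single gene to 13647 probe sets, more than one to 402 and no gene to 4720. The array's build is not given, so no coordinates are printed. Listed genes with no probe set named in this annotation were not analysed here.

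Named were all 9 members, the 5 genes most like the clock gene with the smallest p, members of the 5 pathway lists past the threshold with or without the block (otherwise the smallest p), and Sxl. Marker lists are given by counts. The other peptide genes and fit were named after their values were seen. The members and lists were chosen with earlier results of these data known. Deviations from genotype means correlated at 0.216, 0.248 and 0.114 between arrays of equal number and from -0.223 to 0.0573 between others, so the numbers, all above 0.1, were taken to pair the arrays; this comes from the values, not from the labels. The labels do not say whether replicates came from separate cultures of flies, so p-values measure the spread between these samples. The fit was tested on simulated data.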

Additional observations from a re-analysis of the deposited data

How the results depend on the processing

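Settings tried in place of those above were no filter or a stricter one, quantile normalization, median centring, other pseudocounts, fits that were robust, without trend, weighted by array or blocked by number, a threshold of 0.1, other ways to pick a probe set, and fewer arrays. The 1 clock probe set called (Clk, 1 gene) became 0 without the intensity trend (limma, 1 with an unadjusted p under 0.05). With single arrays left out the count was 0 to 1 (limma, 1 to 4 with an unadjusted p under 0.05). Clk kept its call without wild-type array 1 or 2 (limma adjusted p = 0.0255 and 0.0394). The count became 2 without both arrays numbered 1, where the dimmer cwo probe set joined. In the other settings the count was 1. With the replicate block it was 1 too, but 4 probe sets of 3 genes had an unadjusted p under 0.05, against 1 without it. The dusk minus dawn difference of -0.19 ran from -0.26 to -0.07 with single arrays left out. It was negative in all 12 planned settings that change the values or arrays it is made from, all of which kept Clk in the dawn group. With cry alone as the dawn group, a setting added after the data were seen, it was 0.084. The block changed the calls of wdb, Hdc and Slob given above and no call of a clock gene. Over all probe sets, 293 were called, 128 without the trend, 572 with array weights, 833 with the block, 451 without both arrays numbered 1, and between 54 and 432 when 1 array was omitted. The cause of these changes was not tested. With 3 arrays a genotype, the 95% intervals of the clock genes not called reached from -0.27 to 0.93.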
